A study of Homo sapiens with 17 samples.

Results

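The genes described here are 29 genes of cholesterol synthesis and of the SREBP pathway that controls it, out of 20037 protein-coding genes placed on the human genome (GRCh38.p14, RefSeq). They were taken by name: 5 genes of the early mevalonate steps, 4 of the isoprenoid steps, 3 that form lanosterol from farnesyl diphosphate, 9 that turn lanosterol into cholesterol, the 2 SREBF genes, 5 genes of SREBP processing and 1 sterol carrier. The question asked of each was whether the histone variant H2A.Z had been found at its annotated ends, and how this stood by isoform and by growth state. Other enzymes of the pathway are not analysed here.

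H2A.Z had been mapped by ChIP-seq against a Flag tag in Caco-2/15 cells, which derive from a human colon cancer and serve as a model of enterocyte differentiation once they are confluent. There were 4 groups with 2 experiments (Exp1 and Exp2) each: postconfluent cells with tagged H2A.Z.2, subconfluent cells with tagged H2A.Z.2, postconfluent cells with tagged H2A.Z.1 and subconfluent cells with tagged H2A.Z.1. Cells of all groups carried the tag heterozygously, on H2AFV for H2A.Z.2 or on H2AFZ for H2A.Z.1, so an untagged allele remained in each. Postconfluent cells had been kept for 7 days after confluence. The labels do not say whether each tagged line was 1 clone, and the input and the precipitations of total H2A.Z, 9 of the 17 samples, are not analysed here.

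Cholesterol is built from acetyl-CoA through mevalonate, isoprenoid diphosphates, squalene and lanosterol, and the intermediates also feed protein prenylation, dolichol and ubiquinone. When sterols run low in the endoplasmic reticulum, SCAP carries the SREBP transcription factors to the Golgi, where the proteases encoded by MBTPS1 and MBTPS2 release their active part, and when sterols are plentiful the INSIG proteins hold the complex back. SREBPs bind sterol regulatory elements in promoters, often beside NF-Y, which binds CCAAT, and enterocytes make cholesterol as well as absorbing it. H2A.Z replaces ordinary H2A in nucleosomes beside many transcription start sites.

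Promoter sequences of 26 of the 29 genes could be matched by symbol in RefSeq (GRCh38.p14), all except ACAT2, FDFT1 and SQLE. In the 250 bases upstream of the listed starts, TCACNCCAC, 1 form of the sterol regulatory element, was found in 1 of 26 promoters (3.85%, against 1.19% of 15842 genes), on either strand. Other forms of the element were not searched. The E-box CACGTG was found in 3 (11.5%, against 9.73%), CCAAT in 17 (65.4%, against 40.2%) and the GC box GGGCGG in 21 (80.8%, against 62.1%). Each motif was counted on its own, and matches can share bases, as a pair of CCAAT matches on opposite strands of NSDHL does. The following 250 bases are given 5′ to 3′ on the gene's own strand, ending next to the listed start, with TCACNCCAC (in SREBF2) and CCAAT (in all 5) in capitals on whichever strand they lie. SREBF2 is shown as the promoter with the TCACNCCAC match and MVK and NSDHL as those with 5 CCAAT matches. LSS and TM7SF2 are shown as the genes with the largest score differences between growth states. They lie at chr22:41832855-41833104 (plus strand) for SREBF2, chr12:109573544-109573793 (plus strand) for MVK, chrX:152830813-152831062 (plus strand) for NSDHL, chr21:46228775-46229024 (minus strand) for LSS and chr11:65111622-65111871 (plus strand) for TM7SF2.
SREBF2: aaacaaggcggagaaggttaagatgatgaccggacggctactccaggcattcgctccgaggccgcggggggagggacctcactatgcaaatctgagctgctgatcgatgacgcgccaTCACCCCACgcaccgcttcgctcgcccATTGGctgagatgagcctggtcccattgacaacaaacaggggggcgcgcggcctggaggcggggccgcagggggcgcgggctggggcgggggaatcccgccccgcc
MVK: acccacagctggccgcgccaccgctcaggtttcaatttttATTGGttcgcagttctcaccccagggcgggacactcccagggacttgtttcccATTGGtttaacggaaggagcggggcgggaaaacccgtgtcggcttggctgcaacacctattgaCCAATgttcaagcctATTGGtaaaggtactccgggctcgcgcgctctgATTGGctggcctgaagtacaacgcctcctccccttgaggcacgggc
NSDHL: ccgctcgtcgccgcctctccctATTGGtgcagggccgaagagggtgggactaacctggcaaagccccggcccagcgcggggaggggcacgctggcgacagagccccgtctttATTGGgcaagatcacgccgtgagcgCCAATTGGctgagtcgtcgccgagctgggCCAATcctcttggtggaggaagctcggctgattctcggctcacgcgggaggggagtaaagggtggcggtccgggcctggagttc
LSS: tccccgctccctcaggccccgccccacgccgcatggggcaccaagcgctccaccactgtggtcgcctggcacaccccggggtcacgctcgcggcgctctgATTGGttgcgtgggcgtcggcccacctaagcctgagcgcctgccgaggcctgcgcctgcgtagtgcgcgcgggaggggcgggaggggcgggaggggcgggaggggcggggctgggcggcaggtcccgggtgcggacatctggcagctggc
TM7SF2: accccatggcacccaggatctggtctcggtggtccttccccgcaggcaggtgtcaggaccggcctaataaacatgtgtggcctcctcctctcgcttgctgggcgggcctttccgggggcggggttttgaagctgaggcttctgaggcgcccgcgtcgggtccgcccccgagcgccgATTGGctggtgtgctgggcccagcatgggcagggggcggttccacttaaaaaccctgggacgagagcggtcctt

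H2A.Z intervals stood in different places relative to these bases. Counted from the listed start, with the base before it as −1, the TCACNCCAC match of SREBF2 lies at −133 to −125. Its CCAAT lies at −106 to −102. The lists counted in this paragraph are those reduced to equal length, as described below, and overlaps in the whole lists are not given here. No interval of any of the 8 reduced lists overlapped the printed 250 bases of SREBF2, the intervals lying farther upstream or inside the gene. None overlapped the printed bases of LSS either, and at TM7SF2 1 list did, H2A.Z.2 postconfluent Exp2. At MVK an interval overlapped the printed bases in all 8 lists and covered the 2 CCAAT matches farthest from the start in all 8, but the nearest match in 3. At NSDHL an interval overlapped the bases in 6 lists, and the CCAAT match at −84 to −80 was covered in 4, Exp2 of the postconfluent and Exp1 of the subconfluent lists of both isoforms. A motif match here is a description of the letters and not a measured binding site.

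The data were peak lists, which give the authors' called intervals with a fold enrichment (a ratio) and significance for each, and no read counts, so read depth is unknown and no counting interval can be given. In Exp1 and Exp2 there were 39086 and 51348 intervals in the postconfluent and 55788 and 30603 in the subconfluent H2A.Z.2 lists, and 56427 and 79425 in the postconfluent and 46636 and 66522 in the subconfluent H2A.Z.1 lists. To make the lists equally long, only the 30603 intervals with the highest −log10 p of each were kept, as many as the shortest list has, and an interval's percentile is its rank by fold enrichment within that reduced list. A gene was taken as occupied when at least 1 bp of an interval fell within 1 kb of its annotated end, on either side. Run identifiers in the interval names put the 4 Exp2 lists in 1 sequencing run, the Exp1 H2A.Z.2 lists in another and the Exp1 H2A.Z.1 lists in yet another. In each experiment both growth states of an isoform thus shared a run, while the isoforms shared a run in Exp2 only. The test described below had no term for run. Of colon epithelium markers, 5 of 12 (41.7%) were occupied in all 8 lists, below the 54.3% of all genes, and 0 of 12 in none. Of fibroblast markers, 1 of 10 was occupied in all 8 lists and 6 in none. Of blood markers these counts were 2 and 3 of 10, and of neuron and muscle markers 1 and 3 of 10. Of all genes, 33.1% were occupied in none.

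H2A.Z stood at most of the cholesterol genes in both isoforms and both growth states, at ranks that ran from percentile 4.23 to percentile 99.4 of a list. An interval was present at the same annotated end in all 8 lists for 18 of the 29 genes (62.1%, against 54.3% of all genes), in 1 to 7 lists for 8 (27.6%, against 12.6%) and in none for PMVK, IDI2 and FDFT1 (against 33.1%). Per list, 22 and 25 of the 29 were occupied for H2A.Z.2 after confluence and 25 and 25 before it, and 24 and 20 for H2A.Z.1 after confluence and 23 and 25 before it. The share of all genes was 59.5% to 61.9% in every list. Of each gene's ends the one with the higher ranks was used, and it was the annotated start for all 24 occupied genes whose strand is known, against 93.0% of all such genes. MVD, MVK and TM7SF2 also had an interval at the far end in at least 1 list.

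**Figure D1:**
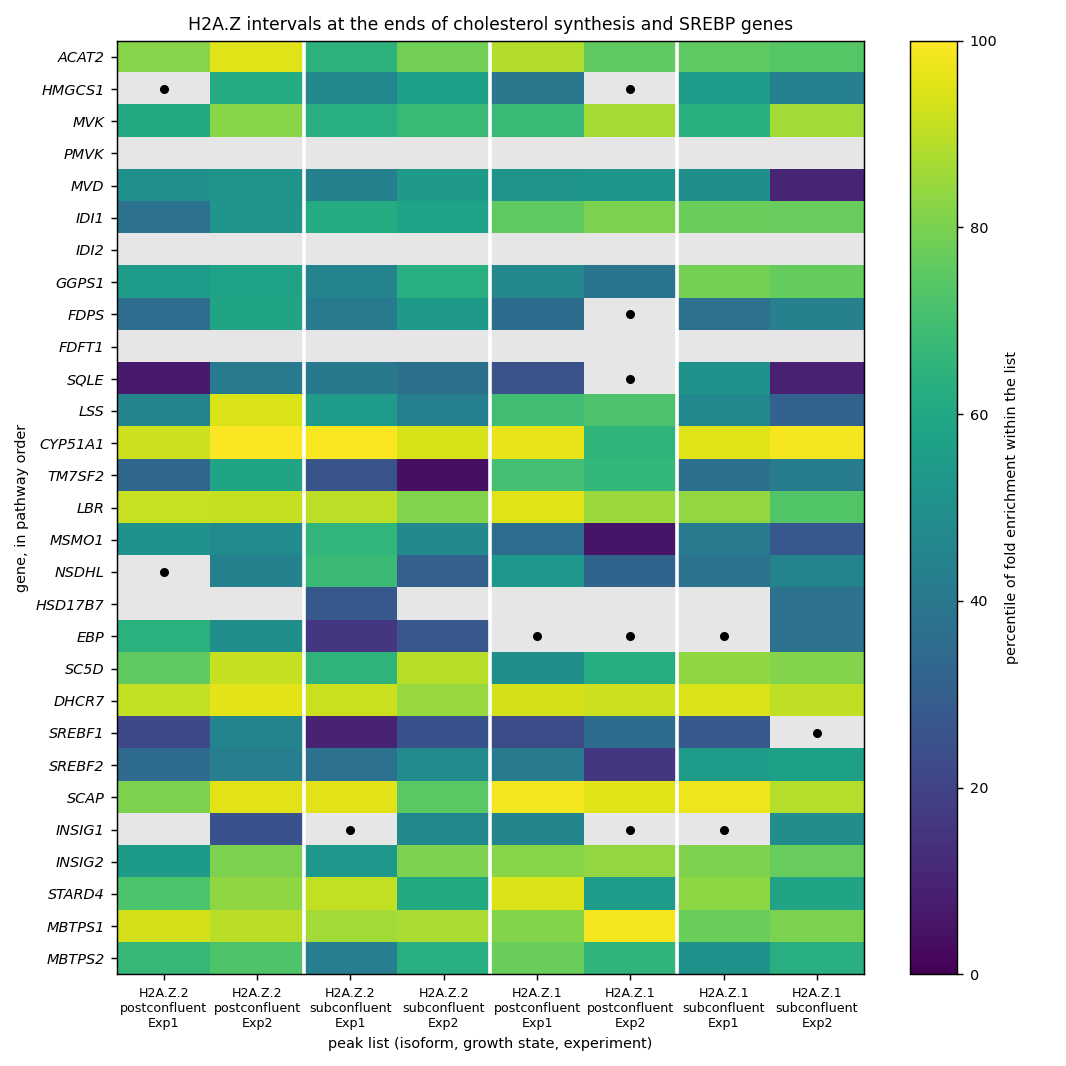
Percentile, by fold enrichment, of the strongest interval at each gene's end, for 29 genes (rows, in pathway order) and 8 peak lists (columns: isoform, growth state and experiment). Grey marks no interval in the reduced list, and a dot marks a gene that has an interval there in the whole list. CYP51A1, DHCR7 and SCAP have the highest mean percentiles of the genes in all 8 lists (92.5, 91.7 and 90.7), and SREBF1 and SQLE have the lowest of the genes in 7 lists.

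The ranks were spread widely among the genes. Over the 18 genes in all 8 lists the mean percentile had a median of 73.1, against 76.8 for all genes in all 8 lists, and 6 of 18 had a mean above 75, against 54.1% of those genes. The genes in 1 to 7 lists had a median of 40.2. The strongest intervals at the 18 genes had median widths of 615.5 to 1081 bp in the 8 lists, against 818 to 1277 bp for all genes in all 8 lists.

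At the early mevalonate steps, 3 of 5 genes were occupied in all 8 lists. ACAT2 (chr6:159762045-159779112), whose enzyme joins acetyl-CoA units into acetoacetyl-CoA, had percentiles of 81.8 and 95.2 in postconfluent and 64.3 and 78.6 in subconfluent H2A.Z.2 lists, and of 88.4 and 75.5 in postconfluent and 75.3 and 73.7 in subconfluent H2A.Z.1 lists (Exp1 and Exp2, in this order here and below). It was in the upper part of every list, on intervals shared with the neighbouring gene SOD2. These were not 1 interval. The summit lay 108 to 155 bp inside the gene in both H2A.Z.2 postconfluent lists, H2A.Z.2 subconfluent Exp2 and H2A.Z.1 postconfluent Exp2. In the other lists it lay outside the gene, on a separate interval. MVK (chr12:109573272-109598125), the mevalonate kinase gene, stood at 60.9 to 86.5, on intervals shared with MMAB, and MVD (chr16:88651940-88663091), which encodes the decarboxylase of the last mevalonate step, at 10.5 to 53.8, with an interval at its far end too in 7 lists. HMGCS1 (chr5:43287470-43313412), the gene of HMG-CoA synthase, was in 6 lists: 61.7 in postconfluent Exp2 and 46.8 and 56.5 in subconfluent H2A.Z.2 lists, and 40.0 in postconfluent Exp1 and 55.5 and 43.1 in subconfluent H2A.Z.1 lists. It was absent from H2A.Z.2 postconfluent Exp1 and H2A.Z.1 postconfluent Exp2, whose whole lists hold it at percentiles of 13.4 and 26.2. Percentiles of whole lists, here and below, rank all intervals of a list and are not on the scale of the reduced lists.

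PMVK (chr1:154924740-154942658), the phosphomevalonate kinase gene, had no interval at its annotated ends but had at least 1 inside the gene in every list. Its single start in the RefSeq promoter table lies at 154936719, 5939 bp inside the annotated start, and the strongest intervals there were 1745 to 2038 bp wide. Their percentiles were 95.6 and 72.8 in postconfluent and 74.3 and 73.3 in subconfluent H2A.Z.2 lists, and 68.0 and 65.4 in postconfluent and 77.1 and 77.1 in subconfluent H2A.Z.1 lists. Counted at listed starts in place of annotated ends, which was done after these values were seen, 18 of the 26 genes with a listed start were occupied in all 8 lists (69.2%, against 57.7% of 15842 genes).

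Among the isoprenoid steps, IDI1 and GGPS1 were in all 8 lists, FDPS in 7 and IDI2 in none. IDI1 (chr10:1039152-1056704), the isopentenyl diphosphate isomerase gene, stood at 37.7 and 52.2 in postconfluent and 61.5 and 57.9 in subconfluent H2A.Z.2 lists, and at 75.1 and 80.2 in postconfluent and 77.5 and 76.9 in subconfluent H2A.Z.1 lists. All 4 H2A.Z.2 values lay below all 4 H2A.Z.1 values, on intervals shared with WDR37. Such separations of lists are a description, here and below, and the share of all genes that separate likewise was not counted. GGPS1 (chr1:235327216-235344532), which makes the geranylgeranyl diphosphate used in protein prenylation, stood at 55.4 and 57.5 in postconfluent and 45.2 and 63.0 in subconfluent H2A.Z.2 lists, and at 46.1 and 38.7 in postconfluent and 79.2 and 76.5 in subconfluent H2A.Z.1 lists. The H2A.Z.1 states did not overlap, while those of H2A.Z.2 did, and the intervals are shared with ARID4B. FDPS (chr1:155308866-155320665), the farnesyl diphosphate synthase gene, which shares intervals with PKLR, stood at 35.5 to 58.5 in its 7 lists and was absent from H2A.Z.1 postconfluent Exp2, where the whole list has it at 5.64. IDI2 (chr10:1018910-1025859), a paralogue of IDI1, had no interval at its ends or anywhere in the gene, also in whole lists.

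Of the steps to lanosterol, LSS was in all 8 lists, SQLE in 7 and FDFT1 in none. SQLE (chr8:124998505-125022283), the squalene monooxygenase gene, had percentiles of 7.21 and 41.5 in postconfluent and 40.4 and 37.1 in subconfluent H2A.Z.2 lists, and of 25.7 in postconfluent Exp1 and 51.5 and 9.18 in subconfluent H2A.Z.1 lists. It was absent from H2A.Z.1 postconfluent Exp2, and the values of the growth states overlapped in both isoforms. LSS (chr21:46188446-46228774), the lanosterol synthase gene, stood at 45.2 and 94.1 in postconfluent and 55.0 and 43.2 in subconfluent H2A.Z.2 lists, and at 69.2 and 72.0 in postconfluent and 46.6 and 31.3 in subconfluent H2A.Z.1 lists. The H2A.Z.1 states did not overlap, and for H2A.Z.2 after confluence the experiments were far apart. In H2A.Z.2 subconfluent Exp1 the summit of LSS lay 423 bp inside the gene, and in the other lists it lay upstream. FDFT1 (chr8:11795582-11839298), the squalene synthase gene, had no interval at its ends. Inside it, 7 reduced and all 8 whole lists had an interval, with summits 6644 to 7360 bp from the nearer end and fold enrichments of 4.54 to 9.22 in the reduced lists.

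Of the 9 genes from lanosterol to cholesterol, 6 were in all 8 lists, and they held both the highest and some of the lowest ranks. CYP51A1 (chr7:92112153-92134803), the lanosterol demethylase gene, stood at 92.3 and 99.4 in postconfluent and 99.1 and 93.8 in subconfluent H2A.Z.2 lists, and at 96.7 and 65.3 in postconfluent and 95.2 and 98.6 in subconfluent H2A.Z.1 lists, with fold enrichments of 9.69 to 18.1. Only H2A.Z.1 postconfluent Exp2 placed it below the 90th percentile. DHCR7 (chr11:71427287-71449043), whose enzyme completes cholesterol in the Kandutsch-Russell branch, varied least, at 90.7 and 95.8 in postconfluent and 92.1 and 84.5 in subconfluent H2A.Z.2 lists and at 93.6 and 92.3 in postconfluent and 94.5 and 90.4 in subconfluent H2A.Z.1 lists (mean 91.7 ± 3.44, SD over the 8 lists). LBR (chr1:225401502-225428821), the lamin B receptor, which is also a sterol reductase, stood at 72.9 to 95.1, and SC5D (chr11:121292771-121313410), a sterol desaturase gene, at 49.9 to 91.2.

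TM7SF2 (chr11:65111872-65116230), which encodes the other reductase of the step that LBR catalyses, ranked far lower than LBR. Its percentiles were 32.8 and 58.5 in postconfluent and 25.9 and 4.23 in subconfluent H2A.Z.2 lists, and 70.1 and 66.3 in postconfluent and 37.0 and 42.5 in subconfluent H2A.Z.1 lists. Postconfluent values lay above subconfluent values in both isoforms without overlap, on intervals shared with VPS51. The share of all genes that separate likewise was not counted. MSMO1 (chr4:165327669-165343164), the methylsterol monooxygenase gene, stood at 51.1 and 48.4 in postconfluent and 65.7 and 47.3 in subconfluent H2A.Z.2 lists, and at 36.1 and 5.77 in postconfluent and 41.2 and 27.7 in subconfluent H2A.Z.1 lists. Here all 4 H2A.Z.2 values lay above all 4 H2A.Z.1 values, the opposite order to that of IDI1. The strongest interval of MSMO1 was not at the same place in every list. Its summit lay 100 to 196 bp inside the gene in H2A.Z.2 and H2A.Z.1 postconfluent Exp2 and in both H2A.Z.1 subconfluent lists. In the other lists the summit lay upstream, on a separate interval.

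The other 3 genes of this branch were in some lists. NSDHL (chrX:152831063-152869729), a sterol dehydrogenase gene that shares its intervals with CETN2, stood at 44.0 in postconfluent Exp2 and 68.2 and 30.8 in subconfluent H2A.Z.2 lists, and at 53.4 and 32.4 in postconfluent and 38.5 and 45.1 in subconfluent H2A.Z.1 lists. EBP (chrX:48521808-48528716), the sterol isomerase gene, stood at 64.1 and 49.8 in postconfluent and 15.7 and 27.0 in subconfluent H2A.Z.2 lists, and at 37.5 in H2A.Z.1 subconfluent Exp2, on intervals shared with PORCN. It was absent from the other 3 reduced H2A.Z.1 lists and present in all 8 whole lists. HSD17B7 (chr1:162790702-162812823), a ketosteroid reductase gene, had narrow intervals of 228 bp or less in 2 lists, H2A.Z.2 subconfluent Exp1 at 27.7 and H2A.Z.1 subconfluent Exp2 at 37.5, and in no further whole list.

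Of the regulators, SCAP and MBTPS1 ranked high and the SREBF genes low. SCAP (chr3:47413681-47477127), the SREBP escort gene, stood at 80.4 and 95.4 in postconfluent and 95.4 and 74.5 in subconfluent H2A.Z.2 lists, and at 98.4 and 95.2 in postconfluent and 97.3 and 88.9 in subconfluent H2A.Z.1 lists. MBTPS1 (chr16:84053763-84116942) stood at 77.5 to 98.6 and MBTPS2 (chrX:21839617-21885423), the gene of the membrane-embedded protease, at 42.8 to 77.7. SREBF2 (chr22:41833105-41907305), which encodes the SREBP that mainly serves cholesterol synthesis, stood at 35.1 and 42.9 in postconfluent and 37.9 and 48.3 in subconfluent H2A.Z.2 lists, and at 40.8 and 16.3 in postconfluent and 55.3 and 56.9 in subconfluent H2A.Z.1 lists, on intervals shared with CCDC134. SREBF1 (chr17:17811334-17836986), whose products mainly serve fatty acid synthesis, was lower still, at 22.1 and 45.1 in postconfluent and 9.67 and 25.3 in subconfluent H2A.Z.2 lists, and at 23.2 and 35.3 in postconfluent and 27.8 in subconfluent Exp1 H2A.Z.1 lists. It was absent from H2A.Z.1 subconfluent Exp2, whose whole list has it at 28.3, and no list placed either SREBF gene above the 60th percentile.

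The paralogues INSIG1 and INSIG2 differed in occupancy. INSIG2 (chr2:118088471-118110997) was in all 8 lists at 53.4 to 83.6, and INSIG1 (chr7:155297878-155310235), itself a classic SREBP target, was in 4. INSIG1 stood at 25.3 in postconfluent Exp2 and 46.5 in subconfluent Exp2 H2A.Z.2 lists, and at 45.5 in postconfluent Exp1 and 49.2 in subconfluent Exp2 H2A.Z.1 lists, which is 1 list in each of the 4 groups, and 7 whole lists hold it. STARD4 (chr5:111496033-111512535), a cytosolic sterol carrier gene, stood at 55.2 to 94.9.

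The list length bore on the genes of low rank. At the same ends, whole lists held 24 of the 29 genes in all 8 lists and 26 in at least 1, so 6 of the 8 genes in some reduced lists were in every whole list, the exceptions being INSIG1 and HSD17B7. The list with the fewest cholesterol genes, H2A.Z.1 postconfluent Exp2 with 20, was the longest and was cut to −log10 p of 16.8 or more, while H2A.Z.2 subconfluent Exp2 was used whole, down to 5.19. That longest list had the highest share of all genes, 61.9%. Counts and list length did not go together throughout, and whether length accounts for the counts was not tested. H2A.Z.1 subconfluent Exp2, with 66522 intervals before the cut, held 25 of the genes, and H2A.Z.2 postconfluent Exp1, with 39086, held 22. With each list at 15301 intervals, 10 genes were in all 8. Anywhere in the gene or within 1 kb of it, an interval was present in at least 1 reduced list for 28 of the 29 genes and in all 8 for 19.

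Summits, the highest points of the intervals, lay on the same side of the annotated start in all 8 lists for 10 of 17 genes. For the 17 genes in all 8 lists with a known strand, all summits lay inside the gene for 7, all upstream for 3 and on both sides for 7. How many of all genes have every summit on 1 side was not counted. Of the 136 summits, 34.6% were more than 250 bp upstream, 5.88% within 250 bp upstream, 41.9% within 300 bp downstream and 17.6% farther downstream. The shares were 35.0%, 13.7%, 31.1% and 20.2% for the 8530 genes in all 8 lists with a known strand and the annotated start as the end used. At LBR the summits were 154 to 285 bp and at STARD4 178 to 281 bp inside the gene, and at INSIG2 they were at −346 to −279 bp, upstream. TM7SF2 had all its summits far inside, at 945 to 1158 bp, and those of GGPS1 ranged from −154 to 1458 bp. At SREBF2, 7 of 8 were upstream and 1, of H2A.Z.1 postconfluent Exp2, was 133 bp inside.

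**Figure D2:**
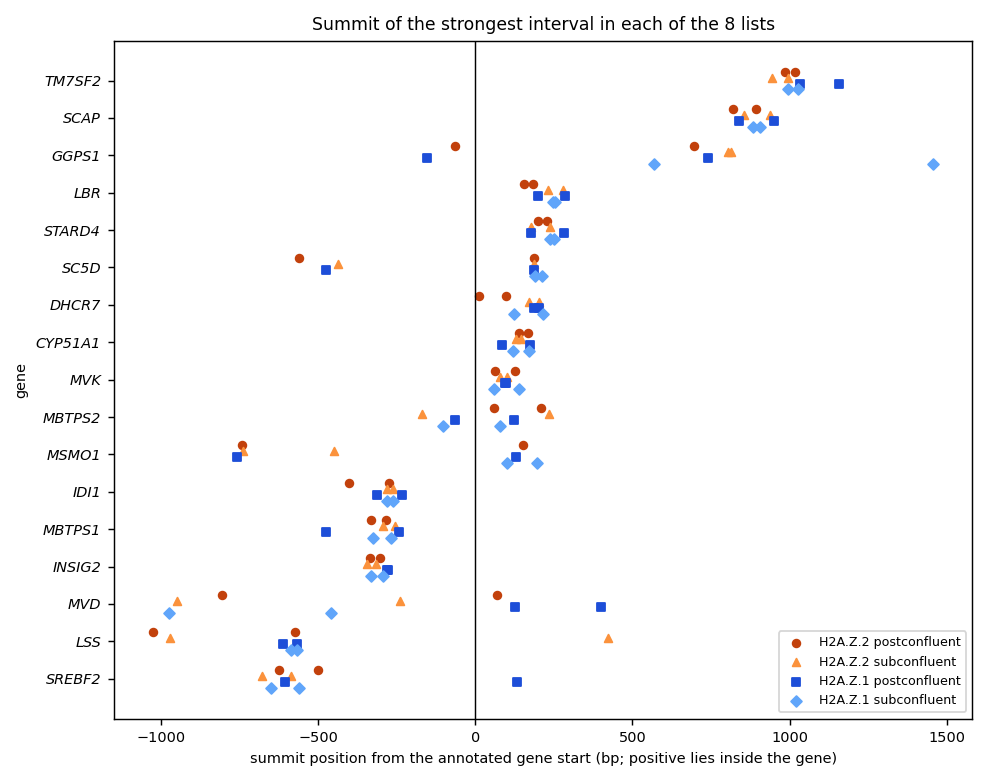
Summit position of the strongest interval relative to the annotated gene start, in bp (positive inside the gene), for the 17 genes in all 8 lists with a known strand; each symbol is 1 list, coloured by isoform and growth state. All summits of TM7SF2 and SCAP lie 820 bp or more inside the annotated start, and LSS, MVD and MSMO1 have the summits farthest upstream, to −1027 bp.

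For some genes this depends on which start is taken. The listed start of SCAP lies 1186 bp inside the annotated start, and its summits, 820 to 950 bp inside the annotated start, were at −366 to −236 bp, upstream of the listed one. Likewise the summits of MVK lay at −464 to −382 bp, those of CYP51A1 at −241 to −152 bp and those of DHCR7 at −640 to −436 bp from the listed starts used, all upstream. For LBR, STARD4 and TM7SF2 the listed and the annotated start are the same.

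Between growth states, none of the cholesterol genes passed the test, and LSS and TM7SF2 had the largest positive differences. The test was limma on normal scores of the ranks, in units of SDs of a normal distribution, for the 10887 genes present in all 8 lists, 18 of them cholesterol genes, at a Benjamini-Hochberg adjusted p under 0.05. Over both isoforms 0 of 18 passed, against 5 of 10887 genes (0.0459%), with 2 of 18 at an unadjusted p under 0.05 against 9.14% of genes. In H2A.Z.2 alone 0 passed (0% of all genes), with 0 of 18 at an unadjusted p under 0.05 against 5.81%. In H2A.Z.1 alone 0 passed (0% of all genes), with 3 of 18 at an unadjusted p under 0.05 against 6.9%. In bulk chromatin, a change in the share of cells and a change per cell cannot be told apart.

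**Figure D3:**
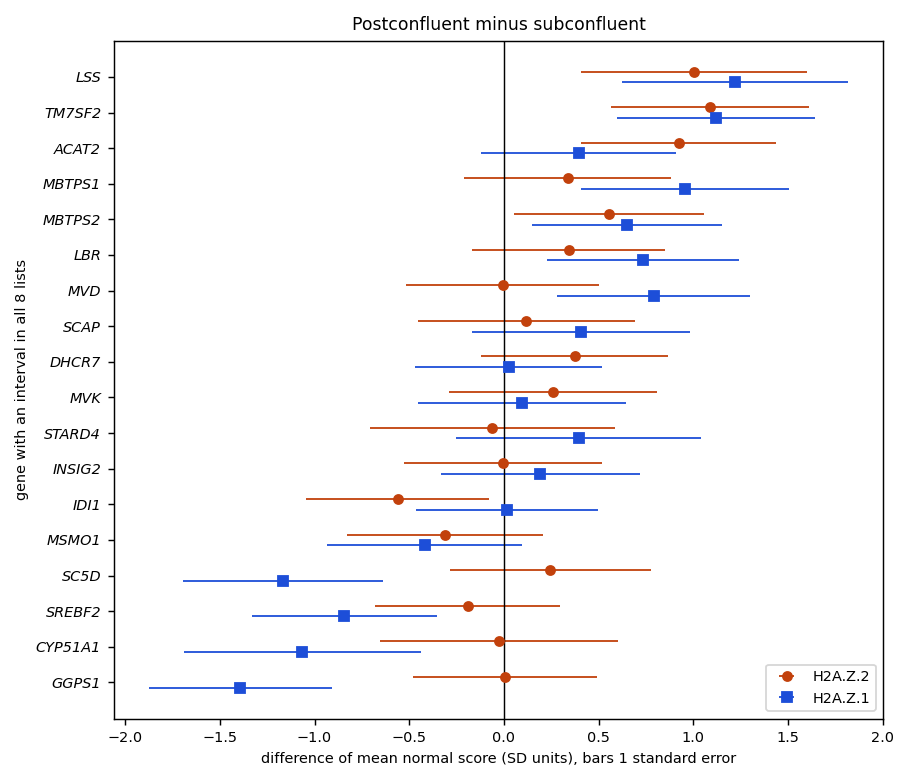
Difference of the mean normal score, postconfluent minus subconfluent, for the 18 genes in all 8 lists (x axis in SD units, bars 1 standard error, circles H2A.Z.2, squares H2A.Z.1; 2 lists a group). LSS and TM7SF2 lie at or above 1 in both isoforms (LSS at −0.11 in H2A.Z.2 without postconfluent Exp2), and GGPS1 lies at −1.39 for H2A.Z.1 and 0.01 for H2A.Z.2, while no difference passed the test.

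TM7SF2 had a mean percentile of 56.9 ± 16.8 in postconfluent and 27.4 ± 16.9 in subconfluent lists (SD, n = 4 each, both isoforms). Its score difference was 1.10 (SE 0.370, limma adjusted p = 0.338), 0.76 in Exp1 and 1.45 in Exp2. LSS had 70.1 ± 20.0 in postconfluent and 44.0 ± 9.84 in subconfluent lists (SD, n = 4 each), a score difference of 1.11 (SE 0.422, limma adjusted p = 0.393), 0.31 in Exp1 and 1.92 in Exp2. Without H2A.Z.2 postconfluent Exp2 the LSS difference was 0.56, and without H2A.Z.2 postconfluent Exp1 it was 1.67. In H2A.Z.2 alone it was 1.00, and −0.11 without H2A.Z.2 postconfluent Exp2.

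GGPS1 had the largest negative difference over both isoforms, −0.69 (SE 0.342, limma adjusted p = 0.557), with 49.4 ± 8.68 in postconfluent and 66.0 ± 15.6 in subconfluent lists (SD, n = 4 each). The difference was −1.39 in H2A.Z.1 (SE 0.483, limma adjusted p = 0.563), −1.37 in Exp1 and −1.41 in Exp2, and 0.01 in H2A.Z.2. It depended on the position taken, since at the listed start 1354 bp inside the gene the H2A.Z.1 difference was −0.44 and that over both isoforms −0.10. With a window of 2 kb they were also −0.44 and −0.10, and with summits required within 1 kb −0.19 and −0.09. SC5D differed by −1.17 in H2A.Z.1 (SE 0.529, limma adjusted p = 0.706), with 56.2 ± 8.84 in postconfluent and 82.4 ± 1.42 in subconfluent lists (SD, n = 2 each).

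For most of the 18 genes the difference was above 0, though no gene passed the test. Over both isoforms it was above 0 for 12 of 18, with a median of 0.19, against 49.8% of all genes and a median of −0.00. It was above 0 for 11 of 18 in H2A.Z.2 (median 0.18), against 49.7% of all genes (median −0.004). In H2A.Z.1 it was above 0 for 13 of 18 (median 0.29), against 49.6% (median −0.006). Whether these counts differ from those of all genes was not tested. The SREBF2 difference was −0.19 in H2A.Z.2 and −0.84 in H2A.Z.1. The H2A.Z.1 value was −0.45 in Exp1 and −1.24 in Exp2, and −0.55 without postconfluent Exp2. In that list the SREBF2 interval used lay inside the gene, and in the other lists upstream. The differences of MBTPS1 were 0.34 in H2A.Z.2 and 0.95 in H2A.Z.1, the H2A.Z.1 value being 0.11 without postconfluent Exp2. No cholesterol gene was present in both lists of one state and absent from both of the other, in H2A.Z.2 (against 1.13% of all genes), in H2A.Z.1 (against 1.16%) or in both together (against 0.225%).

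Between the isoforms, none of the 18 genes passed either, and IDI1 and MSMO1 differed most, in opposite directions. Over both states 0 of 18 passed limma (0% of all genes), with 2 of 18 at an unadjusted p under 0.05 against 3.73%. IDI1 stood at 52.3 ± 10.5 for H2A.Z.2 and 77.4 ± 2.12 for H2A.Z.1 (SD, n = 4 each), a score difference of −0.97 (SE 0.341, limma adjusted p = 1.000), −0.89 in Exp1 and −1.04 in Exp2. MSMO1 stood at 53.1 ± 8.54 for H2A.Z.2 and 27.7 ± 15.6 for H2A.Z.1 (SD, n = 4 each), a difference of 0.93 (SE 0.365, limma adjusted p = 1.000), 0.89 in Exp1 and 0.98 in Exp2. In TM7SF2 it was −0.76 (SE 0.370, limma adjusted p = 1.000), with 30.4 ± 22.4 for H2A.Z.2 and 54.0 ± 16.7 for H2A.Z.1 (SD, n = 4 each). Exp2 is the experiment in which both isoforms came from 1 run. For MSMO1 the interval used was not at the same place in every list, as given above.

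**Figure D4:**
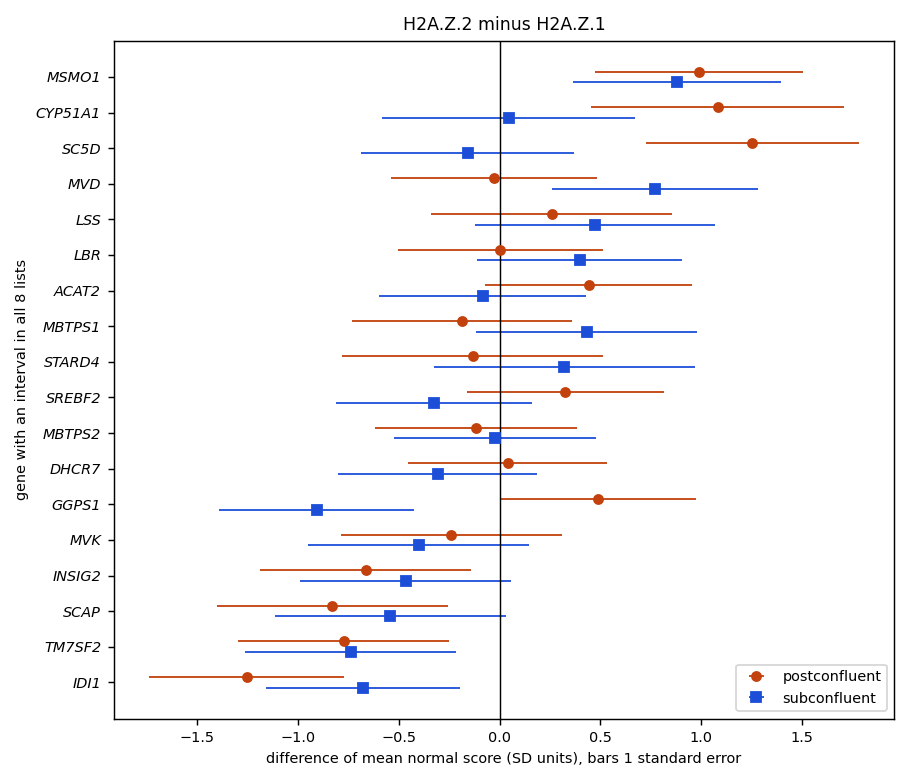
Difference of the mean normal score, H2A.Z.2 minus H2A.Z.1, for the 18 genes in all 8 lists (x axis in SD units, bars 1 standard error, circles postconfluent, squares subconfluent; 2 lists a group). MSMO1 lies above 0 and IDI1 and TM7SF2 below 0 in both states, and no difference passed the test.

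After confluence alone 0 of 18 passed (0% of all genes), with 2 of 18 at an unadjusted p under 0.05 against 3.53%, IDI1 at −1.25 (SE 0.483) and SC5D at 1.25 (SE 0.529), which was 0.83 without H2A.Z.2 postconfluent Exp2. Before confluence 0 passed (0% of all genes), with 0 of 18 at an unadjusted p under 0.05 against 3.67%. The interaction of state and isoform, which tests whether the state difference depends on the isoform, had 0 of 18 past the limma test (0% of all genes) and 0 of 18 at an unadjusted p under 0.05 against 3.13%. It was 1.41 for SC5D (SE 0.749) and 1.40 for GGPS1 (SE 0.684), both with limma adjusted p = 1.000, and the GGPS1 value was 0.21 with summits required within 1 kb. The median isoform difference over the 18 genes was 0.05, with 10 above 0.

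EBP was the 1 cholesterol gene present in both lists of one isoform and neither of the other, at 64.1 and 49.8 for H2A.Z.2 and absent for H2A.Z.1 after confluence, against 0.14% of all genes in this direction and 0.639% in either. The whole H2A.Z.1 postconfluent lists hold it at 54.3 and 62.6, with fold enrichments of 5.10 and 5.95, so the absence is below the 30603 strongest intervals and not from the lists. On the same whole-list scale EBP stood at 71.9 and 70.1 in the H2A.Z.2 postconfluent lists. No cholesterol gene did so before confluence (against 0.823% of all genes) or over both states (against 0.0499%).

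Genes of neighbouring pathways were also taken by name. An interval was present in all 8 lists for 13 of 19 genes of fatty acid synthesis and 13 of 15 of SREBP and INSIG turnover. It was so for 13 of 19 of sterol transport and esterification and 15 of 16 of the isoprenoid branch, against 54.3% of all genes. GPAM, LPIN1, THRSP, ABCG1 and GRAMD1B had no interval at the annotated ends in any reduced list. Intervals elsewhere in them are not given here. Of the 54 neighbouring pathway genes in all 8 lists, 0 passed limma in any of the 7 contrasts, with 0 to 6 at an unadjusted p under 0.05 in a contrast. The 6 were reached between states over both isoforms, against 9.14% of all genes, and in H2A.Z.2, against 5.81%. The largest state differences over both isoforms were −1.34 for SYVN1 (SE 0.370, limma adjusted p = 0.273), a ubiquitin ligase gene of the endoplasmic reticulum, and −1.27 for SPRING1 (SE 0.422, limma adjusted p = 0.338), which supports SREBP cleavage. In the other lists they were −0.90 for AACS and −0.82 for ELOVL5, −0.61 for MYLIP and −0.55 for ABCA1, and 0.97 for CHML and 0.68 for RABGGTA.

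FASN, the fatty acid synthase gene, was present for H2A.Z.2 at 16.2 and 13.9 in postconfluent lists and absent from the subconfluent ones, where H2A.Z.1 had it at 11.4 and 25.1 (against 1.13% of all genes switching between states in H2A.Z.2 and 0.823% between isoforms before confluence). The whole H2A.Z.2 subconfluent Exp1 list holds FASN, and that of Exp2 does not. VCP, an ATPase gene that extracts proteins from membranes, was absent for H2A.Z.2 and at 31.3 and 24.7 for H2A.Z.1 in subconfluent lists, and the whole H2A.Z.2 subconfluent lists do not hold it either.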

How the data were processed

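Flag ChIP-seq peak lists of 8 samples were used, 1 per sample, and 9 samples are not analysed here. Per the submitters' processing notes the build was hg38 and BWA and deepTools were used; the peak caller, its control and any use of the 10 ng of spike-in chromatin are, in the sources used here, not given. In the deposited files the score column is 10 times the −log10 q-value, the fold enrichment column is the authors' ratio (fold), and the deposited −log10 p-value and −log10 q-value columns are on a −log10 scale. These were used only to rank or filter intervals within a list. Only intervals past the authors' threshold are listed, and depth and detection limits are unknown.

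Only chromosomes 1 to 22, X and Y were kept, and 30603 intervals per list. The annotated gene end with the higher mean percentile over the 8 lists was used, chosen without reference to the groups, and a window of 1 kb with an overlap of at least 1 bp. Ranks at the 10887 genes present in all 8 lists became normal scores. A model of the 4 groups, with 4 residual degrees of freedom, was tested with limma 3.58.1 in R 4.3.3, 2-sided, Benjamini-Hochberg over all these genes in each of 7 contrasts. Presence in both lists of 1 group and neither of the other was counted with no p, since 2 lists against 2 allow none under 0.05, and 4 lists against 4 were counted as a description, with no test run. The labels call the samples duplicates without saying whether cultures were separate, so p-values measure the spread between these lists. The code was tested on simulated data.

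Genes given in full were those passing the test, switching presence, with the 3 largest score differences by state or isoform, the 3 highest and 3 lowest mean percentiles among genes in all 8 lists, and those in 1 to 7 lists. Of the other pathway lists, genes that passed or switched and the 2 with the largest state difference were named. A result that this rule names is not reported here. The members and lists were chosen with earlier results of these data known. Alternatives were whole lists, lists of 15301 intervals or of equal covered length, a window of 2 kb, summits in the window, either end, the annotated start, ranking by −log10 p, −log10 q of at least 10, leaving out each list, and the experiment number as a block. Listed starts from the RefSeq promoter table were added after seeing the data.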

Additional observations from a re-analysis of the deposited data

How the results depend on the processing

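Of 29 score differences recomputed, 27 kept their direction under every alternative that gave a value. The state difference of LSS in H2A.Z.2 (1.00) was −0.11 to 2.12 with 1 list left out, −0.11 without H2A.Z.2 postconfluent Exp2. That of GGPS1 in H2A.Z.2 (0.01) was −0.24 to 0.25 with 1 list left out, −0.02 without H2A.Z.2 postconfluent Exp1 and −0.24 without H2A.Z.2 subconfluent Exp1, −0.0019 at the annotated start and −0.26 ranked by −log10 p. In each case the cause was not tested. The GGPS1 interaction (1.40) was 0.68 with a window of 2 kb, and that of SC5D (1.41) 0.87 without H2A.Z.2 subconfluent Exp1. Of the other lists, RABGGTA was at 0.27 and SPRING1 at −0.73 without H2A.Z.2 subconfluent Exp1, MYLIP at −0.29 without H2A.Z.2 postconfluent Exp2, AACS at −0.46 without H2A.Z.2 subconfluent Exp1, ABCA1 at −0.34 without H2A.Z.2 subconfluent Exp2, CHML at 0.56 without H2A.Z.1 postconfluent Exp2 and ELOVL5 at −0.46 ranked by −log10 p. A total of 0 of the cholesterol genes passed limma in any of the 7 contrasts under any alternative that was run. The number of genes in all 8 lists (18) was 10 with lists of 15301 intervals, 10 with lists of equal covered length and 18 to 20 with any 1 list left out. Counts of cholesterol genes switching presence moved with the list length. The shares of all genes given above hold only for the settings first described, and those under each alternative are not given here. Whether the counts below are particular to the cholesterol genes was therefore not tested. For H2A.Z.1 between states the count (0) was 5 at 15301 intervals, 4 at equal covered length, 1 with summits required within 1 kb and 0 to 3 with 1 list left out (3 without H2A.Z.1 postconfluent Exp1 and 3 without H2A.Z.1 subconfluent Exp1). For H2A.Z.2 between states (0) it was 1 at equal covered length and 0 to 2 with 1 list left out (2 without H2A.Z.2 postconfluent Exp2 and 1 without H2A.Z.2 subconfluent Exp2). Between isoforms before confluence (0) it was 2 at 15301 intervals, 2 at equal covered length and 0 to 1 with 1 list left out (1 without either H2A.Z.1 subconfluent list). After confluence (1, EBP) it was 0 with whole lists, 0 at 15301 intervals, 0 with −log10 q of at least 10, 2 at equal covered length and 1 to 3 with 1 list left out (3 without H2A.Z.1 postconfluent Exp1 and 2 without H2A.Z.2 postconfluent Exp2). Over both states (0) it was 1 at equal covered length and 0 to 1 with 1 list left out (1 without H2A.Z.1 subconfluent Exp2). A shorter list holds fewer genes by construction, and beyond that the cause was not tested. The LSS state difference ranged from 0.56 to 1.67 over lists left out and that of TM7SF2 between isoforms from −1.05 without H2A.Z.2 subconfluent Exp1 to −0.47 without H2A.Z.2 subconfluent Exp2. LSS and TM7SF2 had no value with lists of 15301 intervals, equal covered length, −log10 q of at least 10 or summits required, GGPS1 none at equal covered length, IDI1 none at 15301 intervals and MSMO1 none at either, because they were then not in all 8 lists. Where a group was left with 1 list, that list was assumed to vary like the others.

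With the experiment number as a replicate block, 0 of the 18 genes passed in each of the 7 contrasts, and the block changed no call among them. The block was 1 term shared by both isoforms, and a separate term for each isoform was not fitted. Deviations of lists with the same number correlated at 0.158 between the H2A.Z.2 states and 0.207 between the H2A.Z.1 states, and at −0.055 to 0.050 for the other pairs of groups, so the numbers were not taken as pairing all samples.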

Other observations

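CCAAT content and occupancy were set side by side after the values were seen, as a description only. At the listed start used, 16 of the 26 genes had CCAAT in the 250 bases upstream, and 10 of these (62.5%) were occupied in all 8 lists, with mean percentiles of 40.4 to 91.7. Of the 10 without it, CYP51A1, IDI1, IDI2, INSIG2, LBR, MBTPS1, MBTPS2, PMVK, SCAP and SREBF1, 8 (80.0%) were occupied in all 8 lists, with mean percentiles of 62.7 to 92.5. Over all genes the shares in all 8 lists were 58.3% of 5433 with CCAAT and 57.4% of 10409 without it. Whether promoter content bears on the ranks was not tested.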
